A study of Homo sapiens with 15 samples.

Results

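The 9 genes described here, DUSP1, DUSP2, DUSP4, DUSP5, DUSP6, SPRY2, SPRY4, SPRED1 and SPRED2, encode proteins that restrain signalling by mitogen-activated protein kinases (MAPK). They were taken by symbol from a deposited expression table of 23368 rows, in which each has 1 row. The table holds RNA-seq values of U2OS, a human osteosarcoma line with functional p53, in 15 libraries of 6 groups. Asynchronous cells were given Nutlin (3 libraries) or its solvent DMSO (3 libraries). Non-released cells were held in a double thymidine block with Nutlin (2 libraries) or DMSO (2 libraries). S-phase cells had been let out of the same block with Nutlin (2 libraries) or DMSO (3 libraries) and were collected 4 h later. The block consisted of 16 h in 2 mM thymidine, 8 h without it and 16 h in it again, and blocked cells met Nutlin 4 h before the time of release. Nutlin keeps MDM2 from binding p53 and so raises p53 activity. Its dose is read here as 10 µM, because the unit prefix is missing in the labels, and no time in it is given for asynchronous cells. All groups are given as the 1 cell line, and the epithelial and luminal markers of 1 library are described below. Nothing states that replicates came from separate cultures, and the p-values then cover the spread between these libraries alone, which may be technical.

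Growth factors act through receptor tyrosine kinases, RAS, RAF and MEK on the kinase ERK, and active ERK induces transcription of several of its own inhibitors. Dual-specificity phosphatases (DUSP) take the activating phosphates off MAPKs: DUSP1, DUSP2, DUSP4 and DUSP5 do so in the nucleus, and DUSP6 does so in the cytoplasm. DUSP5 and DUSP6 act on ERK, whereas DUSP1 also acts on p38 and JNK, the stress-activated MAPKs. Sprouty proteins (SPRY2, SPRY4) interrupt the path between receptor and RAF, and SPRED proteins (SPRED1, SPRED2) bring the RAS inhibitor NF1 to the membrane. DUSP1, DUSP2, DUSP4 and DUSP5 have each been described as p53-induced in other human cells.

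RefSeq start-site windows on GRCh38.p14 were available for 7 of the 9 genes, with no entry for DUSP4 and DUSP5. The 250 bases upstream of the start are shown for DUSP1, DUSP2 and SPRY2, 3 genes with lower RNA in DMSO-blocked cells than in the other groups, to set side by side what lies upstream of genes that were low together. Each is given 5′ to 3′ in the direction of transcription, on the minus strand, and capitals mark TGACG or its reverse complement, the core letters of the cyclic AMP response element (CRE). The window of DUSP1 lies at chr5:172771196-172771445, that of DUSP2 at chr2:96145441-96145690 and that of SPRY2, at the first of its listed starts, at chr13:80341127-80341376.
DUSP1: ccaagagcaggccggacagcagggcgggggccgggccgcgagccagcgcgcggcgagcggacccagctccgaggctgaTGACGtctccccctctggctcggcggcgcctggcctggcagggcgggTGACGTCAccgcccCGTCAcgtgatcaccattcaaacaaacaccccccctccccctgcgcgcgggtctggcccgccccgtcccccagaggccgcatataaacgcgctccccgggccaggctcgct
DUSP2: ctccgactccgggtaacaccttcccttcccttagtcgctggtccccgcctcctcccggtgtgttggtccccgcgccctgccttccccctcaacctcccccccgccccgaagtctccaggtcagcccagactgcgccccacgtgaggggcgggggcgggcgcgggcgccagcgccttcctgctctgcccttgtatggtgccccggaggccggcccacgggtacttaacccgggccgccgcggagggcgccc
SPRY2: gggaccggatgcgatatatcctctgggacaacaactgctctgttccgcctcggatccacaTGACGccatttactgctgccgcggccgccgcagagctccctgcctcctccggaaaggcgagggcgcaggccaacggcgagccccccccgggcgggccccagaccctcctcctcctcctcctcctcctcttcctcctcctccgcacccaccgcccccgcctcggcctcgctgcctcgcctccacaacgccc
TGACG was searched on both strands and was found in 3 of the 10 windows of these genes (SPRY2 and SPRED2 have more than 1 start), those of DUSP1, SPRY4 and the first start of SPRY2, and in 21.2% of all 35116 windows of this length. DUSP1 held 4 matches, at 172, 125, 122 and 111 bases upstream, of which the matches at 125 and 122 are the 2 strands of 1 full element, TGACGTCA. That full element was found in 1 of the 10 windows and in 1.6% of all windows. The E-box CACGTG was found in DUSP1, where it overlaps the last TGACG match, and in DUSP2, and in 6.3% of all windows. GGGCGG, the Sp1 letters, was found in 5 of the 10 windows and in 42.6% of all. None of the 10 windows held TGANTCA (6.6% of all windows), the CArG box (1.2%) or the p53 decamer (5.6%). These matches are descriptions of letters in a short window. SPRY4 and SPRED2, also lowest in DMSO-blocked cells, are counted here without their sequences being shown, and the SPRED2 windows held none of these motifs.

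The libraries held 6.05 M to 23.38 M reads in genes. The library labelled DMSO asynchronous replicate 3 and DMSO S-phase replicate 2 stood apart, with mean correlations to their own groups of 0.975 and 0.977, against 0.983 to 0.997 for the other 13 libraries. The DMSO S-phase library is also the one with 6.05 M reads. The library labelled DMSO asynchronous replicate 3 was the highest of all 15 for 9 of 9 epithelial and 8 of 8 luminal breast markers. Its epithelial markers summed to 40630 normalised reads, against 12548 to 17569 elsewhere, and its luminal markers to 45276, against 14720 to 20212. Among the luminal markers, ESR1 had 1434.1 normalised reads in this library and at most 22.6 elsewhere. Whether this library holds cells other than U2OS was not tested, and with 15 libraries it stays in the DMSO asynchronous group. The 8 bone and mesenchymal markers summed to 58387 there and to 61419 to 86232 elsewhere, with COL1A2 near 0 in every library (at most 8.7 normalised reads). The blood marker CD3E was at 0 in all 15. The p53 targets CDKN1A and MDM2 check the Nutlin label. In the library labelled DMSO asynchronous replicate 3, CDKN1A had a value of 14.10 and MDM2 one of 14.77, as high as or higher than in Nutlin-treated asynchronous cells. With all 15 libraries neither gene passed the test of Nutlin against DMSO in any state (limma adjusted p between 0.0526 and 0.597). Without both libraries, CDKN1A and MDM2 rose in all 3 states, by 1.44 to 2.15 on the log2 scale. Counts of members called are therefore given with 15 libraries and with the 13 left without both, a setting chosen after seeing the data. Values are from 15 libraries unless stated.

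Expression values are the deposited variance-stabilised values, which are on a log2 scale at high expression and compressed at low expression, where the lowest value, 4.86, stands for 0 reads. Reads were recovered from them, and "normalised reads" are these reads divided by 1 factor per library. Per kilobase of the longest annotated transcript, and as medians over the 13 libraries, DUSP1 had the highest level of the 9, with 648 normalised reads per kb. SPRED1 had 282, SPRED2 269, DUSP5 215, DUSP2 185 and SPRY2 92.4 normalised reads per kb. DUSP6 had 3.77, SPRY4 0.871 and DUSP4 0.740 normalised reads per kb, so these 3 genes were low in this line. A gene was tested if at least 2 libraries had a value 1 unit or more above the lowest. This left 14298 genes and 8 of the 9, all but SPRY4. DUSP4 passed through the library labelled DMSO asynchronous replicate 3, and it was not tested with 13 libraries, which left 7 of the 9.

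**Figure D1:**
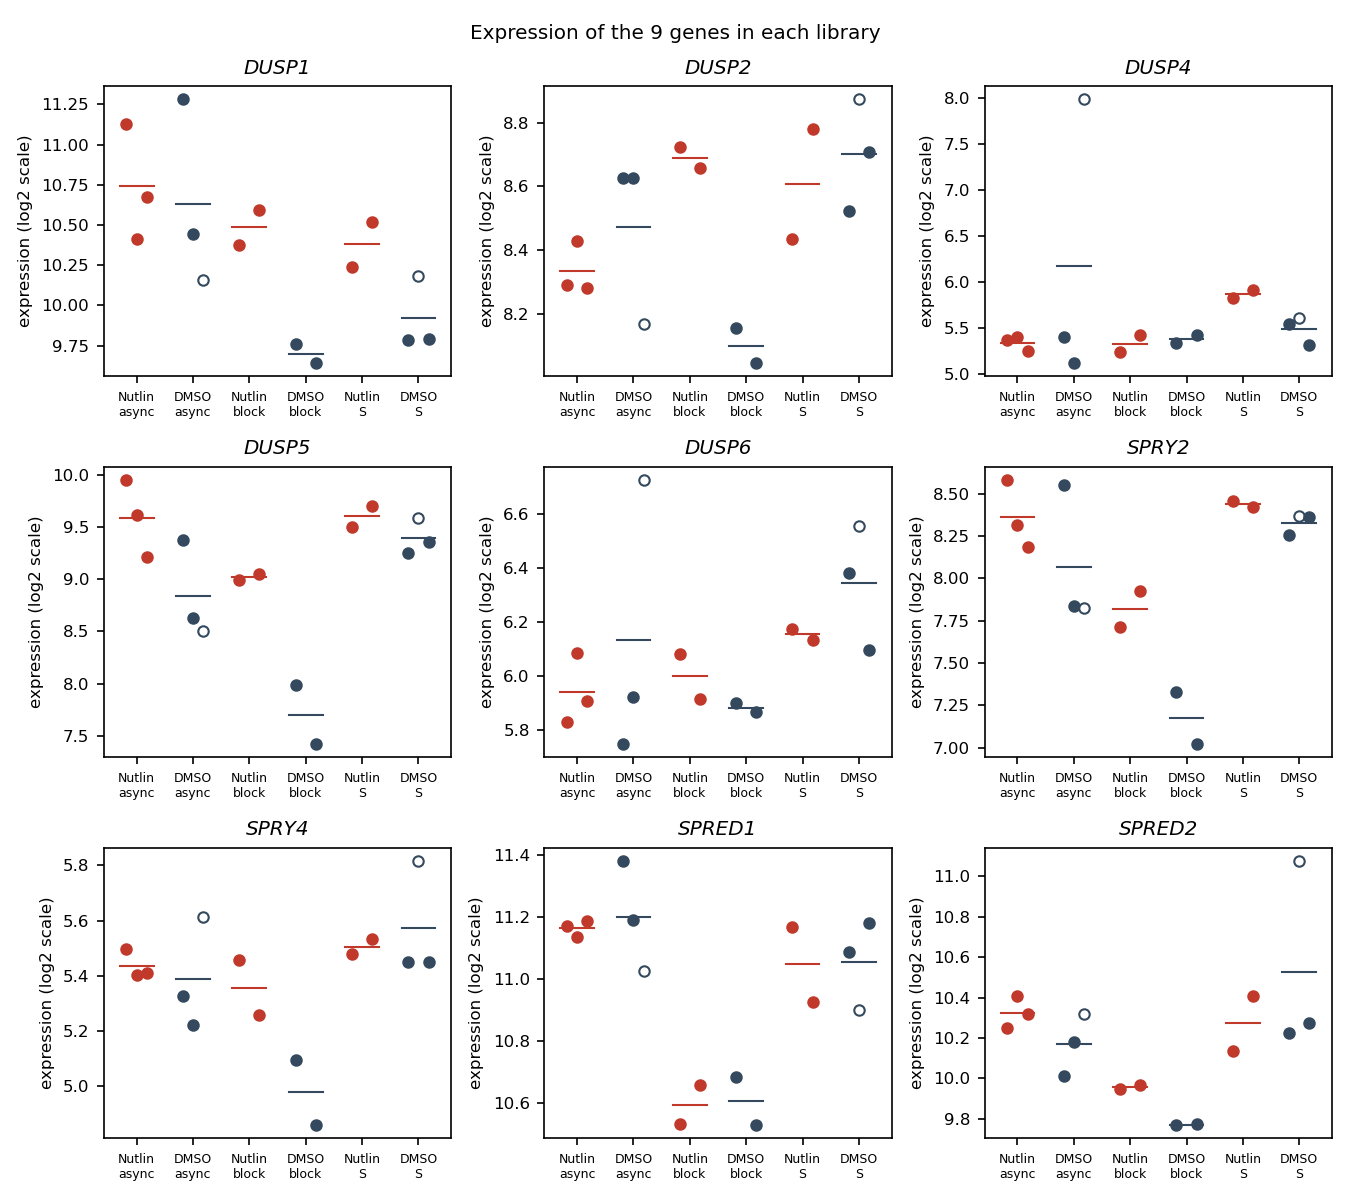
Expression of the 9 genes in each library: the vertical axes show the variance-stabilised value (log2 scale, own range in each panel), points are libraries, short lines are group means, and open points are the 2 libraries that stand apart. In the panels of DUSP1, DUSP2, DUSP5, SPRY2, SPRY4 and SPRED2, both DMSO block libraries lie below the other 13.

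DUSP1 is an early-response phosphatase whose RNA rises within minutes of growth factor or stress signals. In asynchronous cells its values were 11.13, 10.41 and 10.68 with Nutlin and 11.28, 10.45 and 10.16 with DMSO. In non-released cells they were 10.38 and 10.60 with Nutlin and 9.76 and 9.64 with DMSO, and in S-phase cells 10.24 and 10.52 with Nutlin and 9.79, 10.18 and 9.79 with DMSO. The 2 asynchronous groups overlapped fully and spread over more than 1 unit under DMSO. In each of the thymidine-treated states every Nutlin library lay above every DMSO library, in S-phase cells narrowly, at 10.24 against 10.18. Such separation held for 20% of all genes tested in blocked cells and was not counted in S-phase cells. The Nutlin difference of DUSP1 passed in neither state (limma adjusted p = 0.453 in blocked and 0.494 in S-phase cells). By group mean the order was Nutlin asynchronous, DMSO asynchronous, Nutlin non-released, Nutlin S-phase, DMSO S-phase and DMSO non-released. The first 4 groups overlapped each with the next, and DMSO S-phase and DMSO non-released each lay below their upper neighbour without overlap.

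DUSP2, a phosphatase first described in activated lymphocytes, moved over a narrower range. Its values were 8.29, 8.43 and 8.28 with Nutlin and 8.63, 8.62 and 8.17 with DMSO in asynchronous cells. Blocked cells had 8.72 and 8.66 with Nutlin and 8.15 and 8.04 with DMSO, and S-phase cells had 8.44 and 8.78 with Nutlin and 8.52, 8.87 and 8.71 with DMSO. The DMSO block libraries were the lowest of all, the Nutlin block libraries were among the highest, and the 5 other groups overlapped along their order.

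DUSP5, a nuclear phosphatase that acts on ERK and is itself induced by ERK, had the widest range of the well-expressed genes. Asynchronous cells had values of 9.95, 9.61 and 9.21 with Nutlin and 9.38, 8.63 and 8.50 with DMSO. Blocked cells had 8.99 and 9.05 with Nutlin and 7.99 and 7.42 with DMSO, and S-phase cells had 9.50 and 9.70 with Nutlin and 9.25, 9.59 and 9.36 with DMSO. In normalised reads the block groups averaged 463.9 ± 15 with Nutlin and 158.5 ± 57.2 with DMSO (SD, n = 2 each), and the S-phase groups 722.0 ± 75.7 with Nutlin (SD, n = 2) and 621.1 ± 82.4 with DMSO (SD, n = 3). DMSO-blocked cells stood alone at the bottom, below DMSO asynchronous cells without overlap. The other groups formed a lower pair, Nutlin block and DMSO asynchronous, and an upper set of both S-phase groups and Nutlin asynchronous, each overlapping within itself, and DMSO asynchronous replicate 1 reached into the upper set.

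DUSP4 and DUSP6 were low throughout. DUSP4, which is nuclear like DUSP1, had 0.9 to 16.1 normalised reads in 14 libraries and 199.9 in the library labelled DMSO asynchronous replicate 3, the library with the epithelial and luminal markers. The part of those markers in the DUSP4 value was not tested. Its next highest values were both Nutlin S-phase libraries, with 13.6 and 16.1 normalised reads (10 reads each), above 6.6, 7.9 and 3.0 in DMSO S-phase cells. The difference did not pass (limma adjusted p = 0.796). The fit shares 1 spread per gene over all groups. For DUSP4 the SD was 1.59 in DMSO asynchronous cells, against 0.06 and 0.15 in Nutlin and DMSO S-phase cells. This test therefore cannot decide whether DUSP4 differed in S-phase cells. DUSP6, the cytoplasmic ERK phosphatase, had 11.4 to 55.8 normalised reads over the 15 libraries, with the highest again in the library labelled DMSO asynchronous replicate 3. Its group means on the log2 scale were 5.88 to 6.35, and with 15 libraries each group overlapped with the next in order. The library labelled DMSO asynchronous replicate 3 had a DUSP6 value of 6.73. Apart from it, every S-phase library (6.10 to 6.56) lay above every asynchronous and block library (at most 6.08), at few reads and by a narrow gap. How many of all genes show this order was not counted.

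SPRY2 is a Sprouty that ERK signalling induces. Asynchronous cells had 8.58, 8.31 and 8.19 with Nutlin and 8.55, 7.84 and 7.83 with DMSO. Blocked cells had 7.71 and 7.92 with Nutlin and 7.33 and 7.02 with DMSO, and S-phase cells had 8.46 and 8.42 with Nutlin and 8.26, 8.37 and 8.36 with DMSO. The 2 block groups held the lowest means, with the DMSO block below the Nutlin block without overlap. The other 4 groups overlapped along their order, and the Nutlin block reached the lower 2 DMSO asynchronous libraries. SPRY4, its relative, had at most 8 reads in any library. Its values were 5.46 and 5.26 in Nutlin-blocked cells and 5.10 and 4.86 in DMSO-blocked cells, where the libraries held 1 read and 0 reads, against 5.22 to 5.82 in the other groups. A count of 0 allows up to 3 reads, here 1.92 normalised reads, and covers counting error only.

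SPRED1, mutated in the RASopathy Legius syndrome, was well expressed in every group. It had 11.17, 11.13 and 11.19 with Nutlin and 11.38, 11.19 and 11.03 with DMSO in asynchronous cells. Blocked cells had 10.53 and 10.66 with Nutlin and 10.69 and 10.53 with DMSO, and S-phase cells had 11.17 and 10.93 with Nutlin and 11.09, 10.90 and 11.18 with DMSO. Both block groups lay at the bottom and overlapped, and the 4 other groups lay above them and overlapped, so SPRED1 separated blocked from other cells, while Nutlin and DMSO libraries overlapped in each state. SPRED2 had 10.25, 10.41 and 10.32 with Nutlin and 10.01, 10.18 and 10.32 with DMSO in asynchronous cells. Blocked cells had 9.95 and 9.97 with Nutlin and 9.77 in both DMSO libraries, and S-phase cells had 10.14 and 10.41 with Nutlin and 10.23, 11.07 and 10.27 with DMSO. The 11.07 came from the S-phase library that stands apart, and the 2 block groups were again the lowest, here without overlap.

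A pattern noted after the values were seen is that both DMSO block libraries were lower than the other 13 in 6 of the 9 genes, DUSP1, DUSP2, DUSP5, SPRY2, SPRY4 and SPRED2. Over all genes tested this held for 2.94%, and among the 8 members tested it held for 5. The comparisons of the DMSO block with asynchronous cells, with S-phase cells and with the Nutlin block all use these 2 libraries, so they are not independent of each other. In bulk RNA, fewer cells with a transcript and less transcript per cell cannot be told apart.

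In DMSO, thymidine-blocked cells had less RNA of 4 of the 8 tested genes than asynchronous cells: DUSP1, DUSP5, SPRY2 and SPRED1 fell, and none rose. Of all genes tested, 17% were called lower and 16.9% higher in this comparison. The median difference of the 8 was -0.69 and that of all genes -0.01 on the log2 scale. In normalised reads DUSP5 averaged 158.5 ± 57.2 in blocked cells (SD, n = 2) and 418.2 ± 164.6 in asynchronous cells (SD, n = 3). The difference on the log2 scale was -1.13 ± 0.25 (SE) for DUSP5 (limma adjusted p = 0.00393). SPRY2 fell by 0.89 ± 0.19 (limma adjusted p = 0.0033) and the early-response phosphatase DUSP1 by 0.93 ± 0.27 (limma adjusted p = 0.0171). SPRED1 fell by 0.59 ± 0.12 (limma adjusted p = 0.00179), the call that held in every alternative tried. DUSP2 had a difference of -0.37 ± 0.15 (limma adjusted p = 0.0757) and SPRED2 one of -0.40 ± 0.20 (limma adjusted p = 0.133). With 13 libraries both of these passed, with differences of -0.53 (limma adjusted p = 0.00227) and -0.32 (limma adjusted p = 0.0118), so that 6 of 7 were lower, where 24.4% of all genes were. Without DMSO non-released replicate 2, DUSP5 (limma adjusted p = 0.0769) and SPRY2 (limma adjusted p = 0.0582) no longer passed. DUSP1 did not pass without either of the DMSO non-released libraries or with only the compared groups in the fit (limma adjusted p up to 0.112).

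At 4 h after release, DMSO cells had more RNA of 5 of the 8 tested genes than blocked cells: DUSP2, DUSP5, SPRY2, SPRED1 and SPRED2 rose, and none fell. Of all genes tested, 4.11% were called higher and 2.89% lower. The median difference of the 8 was 0.53 and that of all genes -0.01. DUSP5 rose by 1.70 ± 0.25 (limma adjusted p = 0.00121) and passed in all 23 alternatives. SPRY2 rose by 1.15 ± 0.19 (limma adjusted p = 0.0028). Its normalised reads averaged 266.5 ± 14 in S-phase cells (SD, n = 3) and 93.2 ± 21.1 in blocked cells (SD, n = 2). DUSP2 rose by 0.60 ± 0.15 (limma adjusted p = 0.0307), SPRED1 by 0.45 ± 0.12 (limma adjusted p = 0.034) and SPRED2 by 0.75 ± 0.20 (limma adjusted p = 0.0332). DUSP1 did not pass, with a difference of 0.22 and a 95% interval of -0.36 to 0.80 (limma adjusted p = 0.71). The difference between DUSP1 and the other genes was not itself tested. With 13 libraries the same 5 were called, where 7.98% of all genes were higher, and SPRED2 rose by 0.48 (limma adjusted p = 0.00441). The call of SPRY2 was lost without DMSO non-released replicate 2 (limma adjusted p = 0.0686), and those of DUSP2, SPRED1 and SPRED2 when either DMSO non-released library was left out or only the compared groups were fitted (limma adjusted p up to 0.288). DUSP2 also missed without DMSO S-phase replicate 2 or 3. SPRED1 also missed without DMSO S-phase replicate 1 or 3 or Nutlin asynchronous replicate 2 or 3.

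DMSO S-phase cells differed past the test from DMSO asynchronous cells in 1 of the 8 genes. DUSP1 was lower by 0.71 ± 0.24 (limma adjusted p = 0.0422), where 13.6% of all genes were lower and 14.1% higher. Its normalised reads averaged 919.6 ± 159.4 in S-phase cells and 1618.6 ± 716.7 in asynchronous cells (SD, n = 3 each). The call was lost in 13 of 23 alternatives (limma adjusted p up to 0.162), namely those with no filter on low values, with only the compared groups, without DMSO asynchronous replicate 1 or 2, Nutlin asynchronous replicate 3, any of the 4 block libraries, DMSO S-phase replicate 1 or 3, or either Nutlin S-phase library. With 13 libraries DUSP1 was lower by 1.08 (limma adjusted p = 0.00303) and DUSP6 was higher by 0.40 (limma adjusted p = 0.0361), where 15.7% of all genes were higher and 16.2% lower. The differences of DUSP5 and SPRED2 were 0.56 (95% interval 0.08 to 1.05) and 0.36 (95% interval -0.02 to 0.73), and neither passed.

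Under Nutlin, 2 of the 8 genes passed between blocked and asynchronous cells. Non-released cells had lower SPRY2, by 0.54 ± 0.19 (limma adjusted p = 0.0441), and lower SPRED1, by 0.57 ± 0.12 (limma adjusted p = 0.00228), than asynchronous cells, where 17.2% of all genes were lower and 17.3% higher. SPRED1 passed in every alternative, and SPRY2 was lost in 8 of 23, including those without either Nutlin non-released library, Nutlin asynchronous replicate 1 or 2, DMSO S-phase replicate 1 or either Nutlin S-phase library (limma adjusted p up to 0.253). With 13 libraries DUSP5 (difference -0.57, limma adjusted p = 0.043) and SPRED2 (difference -0.37, limma adjusted p = 0.00299) were also lower and DUSP2 was higher, by 0.36 (limma adjusted p = 0.0132). In that fit 24.8% of all genes were lower and 25.3% higher. S-phase cells under Nutlin differed from Nutlin-blocked cells in none of the 8 by limma, where 2.43% of all genes were called. At an unadjusted p under 0.05, 2 of the 8 passed, SPRY2 with a difference of 0.62 ± 0.21 and SPRED1 with one of 0.45 ± 0.13. With 13 libraries SPRED1 rose by 0.45 (limma adjusted p = 0.00916) and SPRED2 by 0.31 (limma adjusted p = 0.0479), where 6.33% of all genes were higher. Nutlin S-phase against Nutlin asynchronous cells gave no call by limma and none at an unadjusted p under 0.05, where 24% of all genes were called. The voom fit also called 0 of the 8 in both of these comparisons. With 13 libraries none of 7 passed in S-phase against asynchronous Nutlin cells, where 41.2% of all genes were called, and 1 had an unadjusted p under 0.05, DUSP2 with a difference of 0.28 (limma adjusted p = 0.0543).

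**Figure D2:**
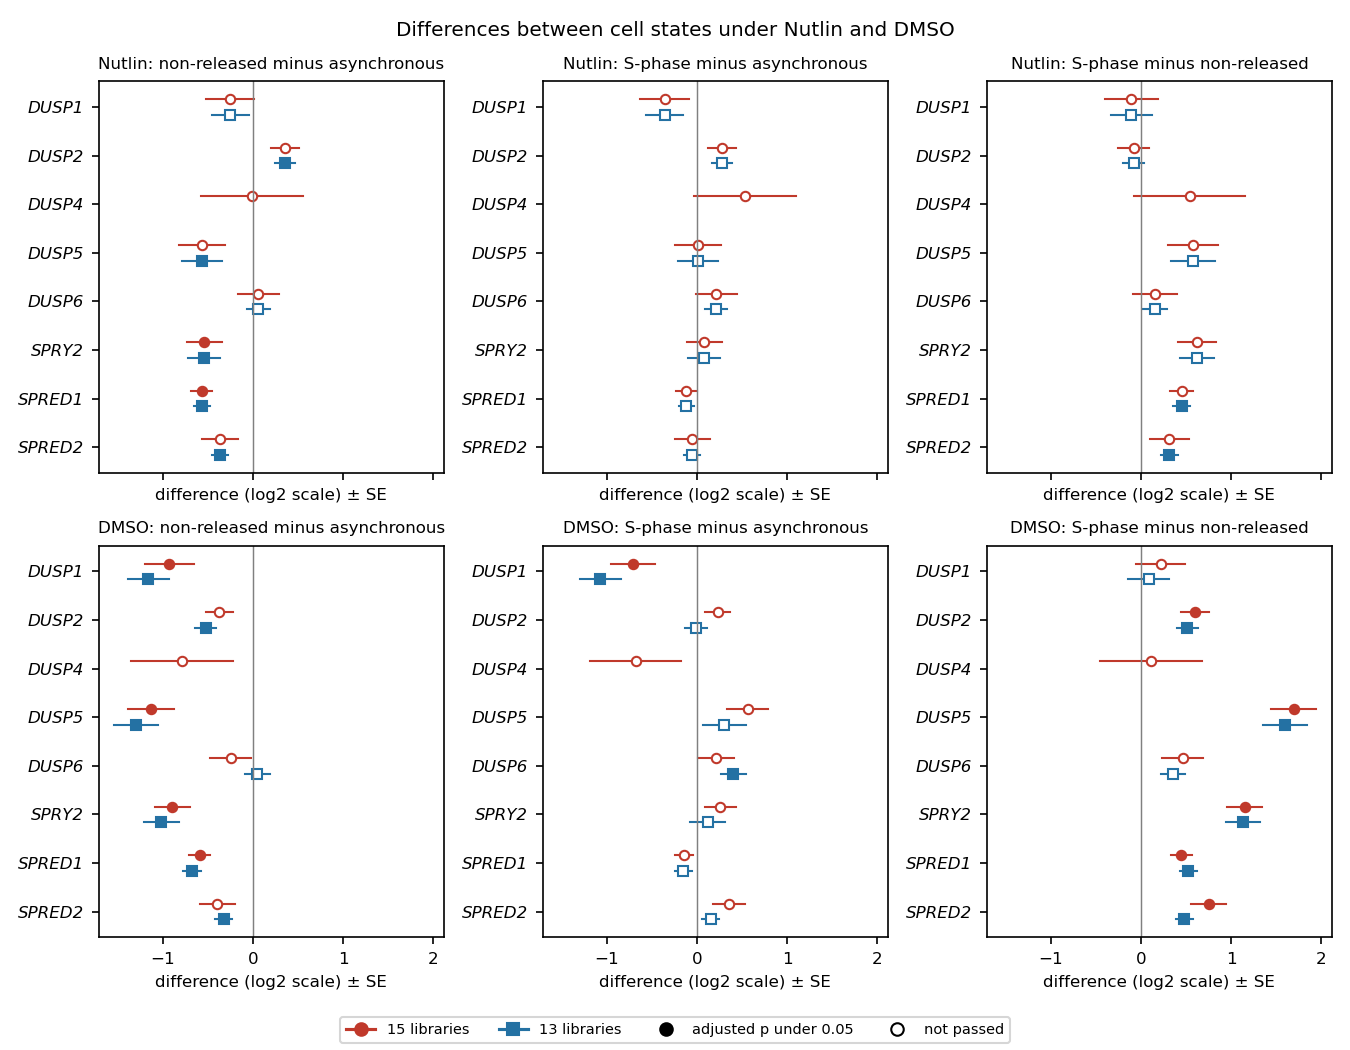
Differences between cell states under Nutlin (top row) and DMSO (bottom row) for the 8 genes tested: the horizontal axes show the difference on the log2 scale, and lines are ± 1 SE. Circles use 15 libraries and squares 13, filled where the adjusted p was under 0.05; DUSP5 under DMSO is at -1.13 in the left panel and at 1.70 in the right panel.

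Nutlin against DMSO asks which of these genes differ with the drug in each state, and the part of p53 in a difference was not tested. In blocked cells Nutlin raised DUSP5, by 1.32 ± 0.28 (limma adjusted p = 0.0388), and no other gene of the 8 passed with 15 libraries, where 0.874% of all genes were called higher and 0.042% lower. The voom fit on recovered reads, which is less compressed at low values, gave 1.61 for DUSP5 (adjusted p = 0.0251). Of the 8, 4 passed at an unadjusted p under 0.05. Besides DUSP5 these were DUSP2 with a difference of 0.59 ± 0.17 (limma adjusted p = 0.173), DUSP1 with 0.79 ± 0.29 (limma adjusted p = 0.453) and SPRY2 with 0.64 ± 0.21 (limma adjusted p = 0.313). With 13 libraries DUSP5 (limma adjusted p = 0.00499) and DUSP2 (limma adjusted p = 0.0108) passed, where 2.81% of all genes were higher. In 7 of the 9 genes, all but DUSP4 and SPRED1, both Nutlin block libraries lay above both DMSO block libraries. This held for 6 of the 8 tested and for 20% of all genes tested. For DUSP1, DUSP2, DUSP5, SPRY2, SPRY4 and SPRED2 it follows from the DMSO block libraries being the lowest of all, so it is not a separate observation. In DUSP6 the nearest values were 5.92 with Nutlin and 5.90 with DMSO. The median difference of the 8 was 0.39 and that of all genes -0.02. SPRED1 had a difference of -0.01 with a 95% interval of -0.29 to 0.26. The DUSP5 call was lost in 10 of 23 alternatives (limma adjusted p up to 0.468, differences of 1.04 to 1.61). These were the fit with no filter on low values and those without Nutlin asynchronous replicate 2, any of the 4 block libraries, DMSO S-phase replicate 1 or 3, or either Nutlin S-phase library.

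In asynchronous and S-phase cells Nutlin changed none of the 8 genes past the test, by limma or by voom. In asynchronous cells 2.45% of all genes were called by limma, 1.91% as higher with Nutlin, and DUSP5, with a difference of 0.75 ± 0.23 (limma adjusted p = 0.124), was the 1 member past an unadjusted p of 0.05. It passed in 1 alternative, without DMSO asynchronous replicate 1 (limma adjusted p = 0.0165), the DMSO asynchronous library with the highest DUSP5 value. The 95% intervals there were -0.41 to 0.63 for DUSP1, -0.44 to 0.15 for DUSP2, -0.08 to 0.66 for SPRY2 and -0.26 to 0.19 for SPRED1. With 13 libraries no member passed either, where 6.26% of all genes were called, and 3 of 7 had an unadjusted p under 0.05. These were DUSP2 with a difference of -0.29 ± 0.11 (limma adjusted p = 0.144), DUSP5 with 0.59 ± 0.22 (limma adjusted p = 0.147) and SPRED2 with 0.23 ± 0.09 (limma adjusted p = 0.158). The difference of DUSP1 was 0.11 with 15 libraries and -0.12 with 13, neither past the test (limma adjusted p = 0.952 and 0.803). In S-phase cells 2% of all genes were called, 1.84% as higher, and no member passed even at an unadjusted p under 0.05 by limma with 15 libraries. DUSP1 had the largest difference there among the 6 well-expressed genes, 0.46 ± 0.27, and 0.59 ± 0.23 with 13 libraries (limma adjusted p = 0.205). It was the 1 of 7 past an unadjusted p of 0.05 with 13 libraries, of which none passed the test, where 3.97% of all genes were called.

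**Figure D3:**
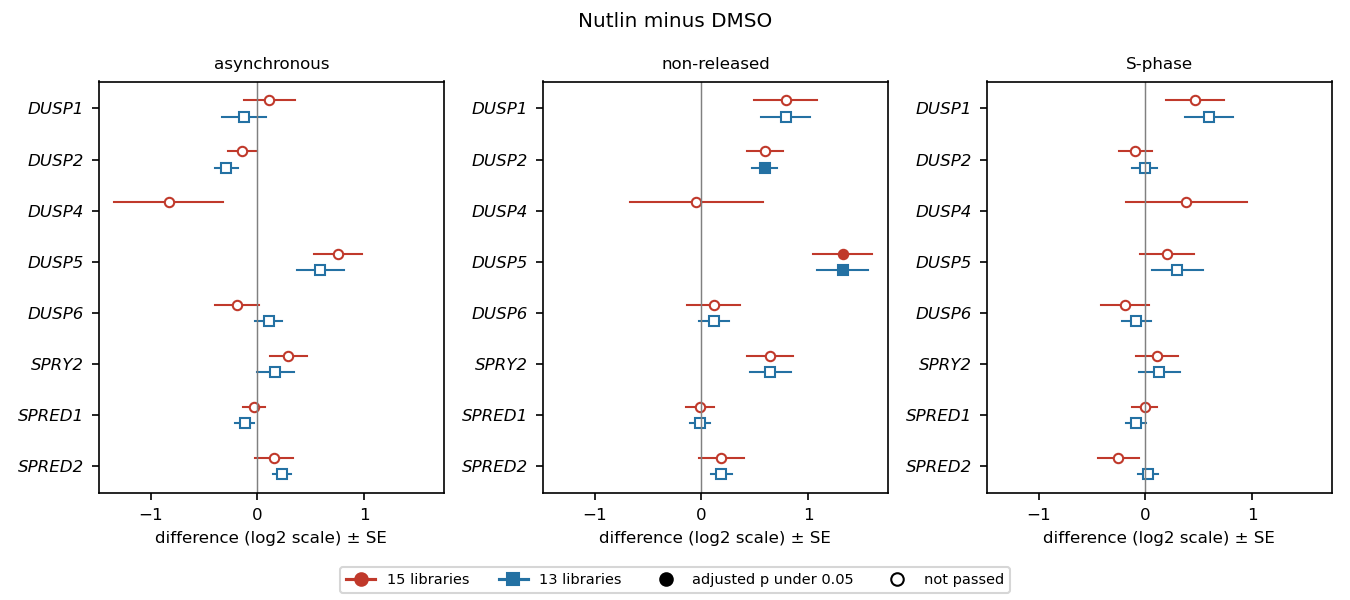
Nutlin minus DMSO in the 3 cell states for the 8 genes tested: the horizontal axes show the difference on the log2 scale, and lines are ± 1 SE. Circles use 15 libraries and squares 13, filled where the adjusted p was under 0.05. DUSP5 passes in non-released cells at 1.32, and DUSP4, tested only with 15 libraries, has the widest error.

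Whether the Nutlin response itself differed between states was tested as a difference of differences. S-phase cells were collected 4 h after release, and no time in Nutlin is given for asynchronous cells. State and time in Nutlin therefore cannot be told apart, here or between states under Nutlin. None of the 8 genes passed with 15 libraries in any of the 3 such tests by limma or by voom, and no gene of the 14298 did by limma (0% called). At an unadjusted p under 0.05, 1 member passed for non-released minus asynchronous, none for S-phase minus asynchronous and 2 for S-phase minus non-released. The response of DUSP2 in blocked minus that in asynchronous cells was 0.73 ± 0.22 (limma adjusted p = 1), and 0.88 ± 0.16 with 13 libraries (limma adjusted p = 0.116). For S-phase minus non-released, the response of DUSP5 differed by -1.12 ± 0.38 and that of DUSP2 by -0.68 ± 0.23 (limma adjusted p = 0.999 for each). With 13 libraries 0 of 7 passed in each of the 3 tests, where 0.0211%, 0% and 0% of all genes were called, and 3, 1 and 2 had an unadjusted p under 0.05. The call of DUSP5 in blocked cells and its absence elsewhere therefore do not amount to a shown difference between states.

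The other genes of the pathway were read from lists chosen with earlier results of these data known. Of 10 other DUSP, Sprouty and SPRED genes, listed as sister genes, 8 were tested. Among them DUSP14 rose with Nutlin in each state, by 0.54 ± 0.12 in asynchronous cells (limma adjusted p = 0.0237), 0.67 ± 0.14 in blocked cells (limma adjusted p = 0.0434) and 0.71 ± 0.13 in S-phase cells (limma adjusted p = 0.00928). The calls were lost in 4, 15 and 2 of 23 alternatives (limma adjusted p up to 0.384), among them in asynchronous cells without any 1 Nutlin asynchronous library or DMSO asynchronous replicate 3, in blocked cells without any 1 block library, and in S-phase cells without Nutlin S-phase replicate 2. DUSP14 values in blocked cells were 11.07 and 11.10 with Nutlin and 10.46 and 10.38 with DMSO. DUSP7, a cytoplasmic ERK phosphatase like DUSP6, moved with the state under DMSO: it fell by 1.03 ± 0.25 in blocked against asynchronous cells (limma adjusted p = 0.00616) and rose by 0.95 ± 0.25 in S-phase against blocked cells (limma adjusted p = 0.0336). DUSP10, which acts on p38 and JNK, went the other way, with a rise of 0.64 in blocked cells (limma adjusted p = 0.00117) and a fall of 0.44 after release (limma adjusted p = 0.0371). SPRED3, the third SPRED, rose by 1.02 ± 0.26 after release under DMSO (limma adjusted p = 0.03). With 13 libraries the release rises were smaller, 0.74 for SPRED3 (limma adjusted p = 0.0287) and 0.65 for DUSP7 (limma adjusted p = 0.0126). The release calls of DUSP7, DUSP10 and SPRED3 were lost in 6 of 23, 10 of 23 and 5 of 22 alternatives, each among them when either DMSO non-released library was left out (limma adjusted p up to 0.302).

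The 24 transcripts known to respond to ERK, other than the members, had 22 tested. In DMSO-blocked against asynchronous cells 13 of the 22 fell and 3 rose, where 17% of all genes were lower and 16.9% higher, with a median of -0.68. MYC, the growth-promoting transcription factor, had values of 10.26 and 10.23 in blocked cells and 12.12, 11.90 and 11.65 in asynchronous cells, and fell by 1.65 ± 0.14. CCND1, which encodes cyclin D1, fell by 0.83 ± 0.08. In S-phase against blocked cells under DMSO 13 rose and none fell, where 4.11% of all genes were higher and 2.89% lower, with a median of 0.85. ETV4, an ETS factor used as an ERK output marker, had 10.55, 10.47 and 10.42 in S-phase cells and 9.68 and 9.53 in blocked cells and rose by 0.88 ± 0.10. ERRFI1, a feedback inhibitor of the EGF receptor, rose by 1.30 ± 0.18. With Nutlin in blocked cells 3 of the 22 rose and none fell, where 0.874% of all genes were higher, and with 13 libraries 8 rose, where 2.81% were. FOS had 8.85 and 8.69 with Nutlin and 7.53 and 7.46 with DMSO in blocked cells, a rise of 1.27 ± 0.18 (limma adjusted p = 0.00339). EPHA2, a receptor tyrosine kinase gene, rose by 0.97 ± 0.13 and the survival gene MCL1 by 0.51 ± 0.11. The MCL1 call was lost in 11 of 23 alternatives (among them without any 1 block library; limma adjusted p up to 0.547), that of FOS in 2 (without DMSO non-released replicate 2 or Nutlin non-released replicate 1; limma adjusted p up to 0.0557) and that of EPHA2 in 1 (without Nutlin non-released replicate 2; limma adjusted p = 0.0635). The list did not move in 1 direction: FOS rose by 1.76 ± 0.17 in Nutlin-blocked against Nutlin asynchronous cells (limma adjusted p = 1.22e-05), while MYC fell by 1.35 ± 0.14 there.

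Of 15 growth factor ligands 13 were tested. In S-phase against blocked cells under DMSO 6 rose and none fell, where 4.11% of all genes were higher. EREG, an EGF-receptor ligand, had values of 8.61, 8.81 and 8.88 in S-phase cells and 6.76 and 6.67 in blocked cells, a rise of 2.05 ± 0.20. TGFA rose by 1.26 ± 0.23, HBEGF by 1.14 ± 0.22 and FGF5 by 1.47 ± 0.31, calls that were lost when either DMSO non-released library was left out (limma adjusted p up to 0.142). In blocked against asynchronous cells under DMSO 5 of the 13 ligands fell and none rose, where 17% of all genes were lower and 16.9% higher, and FGF5 fell by 1.65 ± 0.31. Nutlin raised 2, 2 and 3 of the 13 ligands in asynchronous, blocked and S-phase cells, where 1.91%, 0.874% and 1.84% of all genes were higher, and TGFA was among them each time, by 1.09 ± 0.20, 1.18 ± 0.25 and 1.14 ± 0.23. The asynchronous TGFA call was lost with only the compared groups or without DMSO asynchronous replicate 2 (limma adjusted p up to 0.105), and the S-phase call when either Nutlin S-phase library was left out (limma adjusted p up to 0.143). In blocked cells the TGFA call was lost in 10 of 23 alternatives, among them without any 1 block library (limma adjusted p up to 0.477). The 23 genes of the ERK cascade itself, from receptor to kinase, were all tested. For Nutlin in blocked cells 0 passed by limma or by voom and 2 at an unadjusted p under 0.05. For S-phase against blocked cells under DMSO 0 passed by limma or by voom and 4 at an unadjusted p under 0.05. With 13 libraries 2 rose there, where 7.98% of all genes were higher, and 1 fell. With 15 libraries, 4 of the 23 fell and 2 rose in blocked against asynchronous DMSO cells. Of all genes, 17% were lower and 16.9% higher there. With 13 libraries 9 fell and 3 rose, where 24.4% of all genes were lower. In the same comparison under Nutlin, 6 fell and 1 rose with 15 libraries, where 17.2% of all genes were lower and 17.3% higher. Those that fell under DMSO with 15 libraries included PTPN11, the phosphatase SHP2, with a fall of 0.60 ± 0.10, and the adaptor GRB2, with a fall of 0.49 ± 0.09. SOS2, which had the smallest p of the 23 there, rose by 0.54 ± 0.08 (limma adjusted p = 0.000276) and passed in every alternative.

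**Figure D4:**
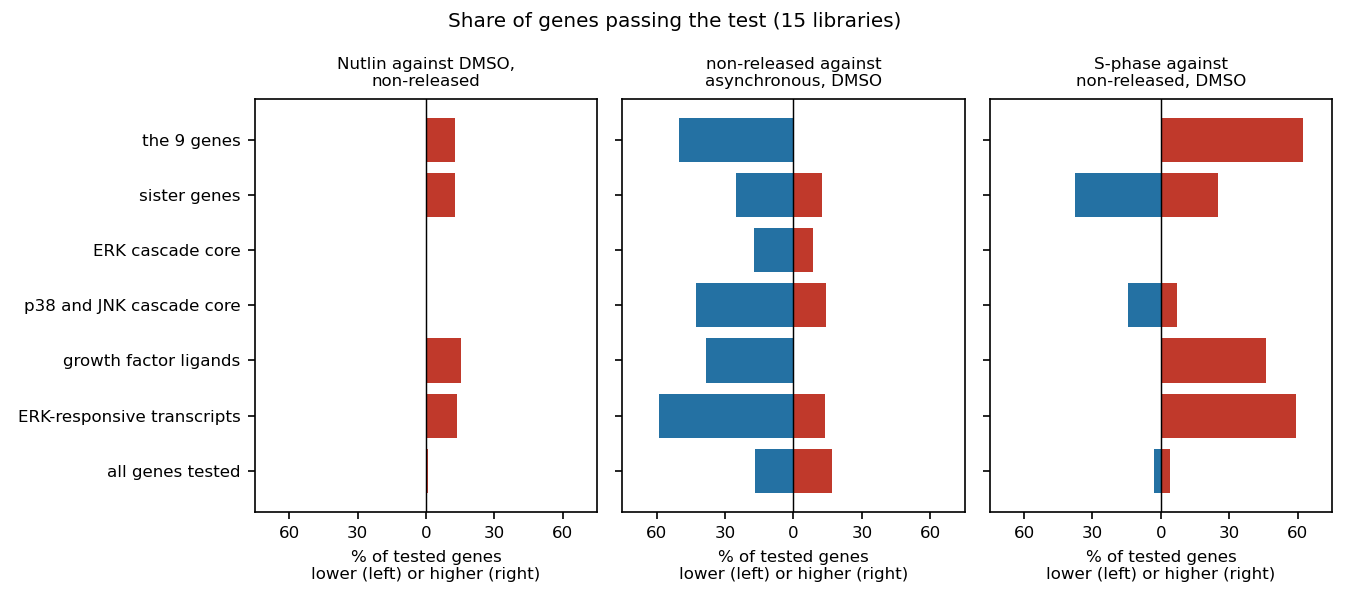
Share of tested genes that passed the test with 15 libraries, as percent, for the 9 genes, the 5 lists and all genes: bars to the left are genes lower and bars to the right genes higher in the first-named group of each panel's title. In S-phase against non-released cells under DMSO the 9 genes (5 of 8 tested) and the ERK-responsive transcripts (13 of 22) stand to the right, and 4.11% of all genes do.

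For each member called in at least 1 comparison, the genes most like it were those with the smallest root mean square (RMS) difference between mean-centred values over the 13 libraries. For DUSP5 these included MAFF (RMS 0.233) and HBEGF (0.235), against its own SD of 0.706. SPRY2 ranked 4 among all genes tested for likeness to DUSP5, with an RMS of 0.271. For SPRY2, with an own SD of 0.484, the nearest were VGLL3 (RMS 0.139), ELL2 (0.149) and PLAUR (0.153), and DUSP5 ranked 94. DUSP1 was nearest to CYR61 (RMS 0.221), BDNF (0.224) and SAA1 (0.252), against its own SD of 0.514. DUSP2 was nearest to MIDN (0.150), SMAD3 (0.154) and SMOX (0.165), against its own SD of 0.233. An RMS depends on the gene's own spread, so it is not comparable between members. The Pearson correlations with these neighbours were 0.862 to 0.945 for DUSP1 and 0.687 to 0.744 for DUSP2. SPRED1 was nearest to RIN2 (RMS 0.061, own SD 0.287), and SPRED2 to EPN2 (RMS 0.082, own SD 0.217). For DUSP1, DUSP2, SPRED1 and SPRED2 the nearest other member ranked 2483, 913, 2148 and 2522. These 13 libraries share their 6 groups, so a small RMS describes a like profile over groups and no more.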

How the data were processed

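The authors deposited 1 table of variance-stabilised log2 values, with 1 column per library. Per the submitters' processing notes, the tools included TopHat 0.9, HTSeq, CASAVA 1.8.2 and DESeq2 1.10.1, with genome build hg19. Their settings, the annotation and the strand handling are unstated. The transformation was inverted here to recover reads. With 1 factor per library, 99.87% to 99.98% of values above the lowest came within 0.05 of a whole read in 14 libraries, and 98.03% in DMSO S-phase replicate 3. Groups came from the library labels. limma 3.58.1 (R 4.3.3) was fitted to all 14298 genes in which at least 2 libraries lay 1 unit or more above the lowest value, with 1 mean per group and a mean-variance trend (9 residual and 4.66 prior degrees of freedom), two-sided, with Benjamini-Hochberg adjustment within each of 12 comparisons and calls at an adjusted p under 0.05. The 23 alternatives were no filter, a stricter filter (2 units), voom on recovered reads, median-centred libraries, only the compared groups, no trend, a replicate block, each library left out, and 13 libraries. The fit was tested on simulated data in which no library stood apart, so that test cannot show how the fit behaves with such libraries. The members and lists were chosen with earlier results of these data known. All members are named, and from each list up to 4 called genes with the smallest p per comparison, of which the report gives some, plus nearest profiles. Some items under these rules are not reported here. Lengths are from GENCODE and promoter windows from RefSeq. Depth sets the precision at low levels: 3 reads, the limit a count of 0 allows, equal 7.94 normalised reads in the shallowest library and 1.92 in the deepest, for counting error only.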

Additional observations from a re-analysis of the deposited data

How the results depend on the processing

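Of 13 member differences called, 3 were called in every alternative (SPRED1 in blocked against asynchronous cells under both treatments, and DUSP5 in S-phase against blocked DMSO cells). Of 26 others with an unadjusted p under 0.05 at 15 or 13 libraries, 15 passed in at least 1 alternative, and none of either kind changed sign. For Nutlin in blocked cells, where 1 gene was called, no filter on low values gave 0, only the groups compared gave 4, and leaving out both libraries that stand apart (13 libraries, chosen after seeing the data) gave 2. For S-phase against asynchronous DMSO cells (1 called), no filter gave 0, only the groups compared 0, the replicate block 2, and 13 libraries 2. For S-phase against blocked DMSO cells (5 called), only the groups compared gave 2. For blocked against asynchronous Nutlin cells (2 called), no filter gave 1, only the groups compared 5 and 13 libraries 5. For S-phase against asynchronous Nutlin cells (0 called), only the groups compared gave 1. For S-phase against blocked Nutlin cells (0 called), only the groups compared gave 3 and 13 libraries 2. The causes were not tested.

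Leaving out 1 library at a time gave 0 to 1 called members for Nutlin in asynchronous cells, 0 to 2 in blocked and 0 in S-phase cells. It gave 1 to 5 for blocked against asynchronous DMSO cells, 0 to 2 for S-phase against asynchronous and 1 to 5 for S-phase against blocked. Under Nutlin the same 3 comparisons gave 1 to 3, 0, and 0 to 1, and the differences of responses gave 0. In groups of 2, the library that remains is assumed to vary like the other groups. The replicate numbers were not taken to pair the libraries in the main fit, and the replicate block was an alternative. Of the same-numbered pairs, 20 of 33 had a correlation of deviations over 0.1 (-0.284 to 0.481, median 0.149). Other pairs had a median of -0.058, with 11 of 60 over 0.1, and 13 of 15 libraries were nearer their own number, a hint from the data and not the design. In groups of 2 the deviations mirror each other, so other-number values repeat same-number ones with the sign changed. The lowest same-number value, -0.284, involves DMSO S-phase replicate 2, which stands apart. These correlations therefore leave undecided whether the numbers pair the libraries. The replicate block moved no other count of called members by more than 1.5 times. At a few reads, as for DUSP4 and SPRY4, depth limits any difference.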

Other observations

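The p38 and JNK kinases, which DUSP1 and DUSP10 dephosphorylate, were read through a list of 15 cascade genes, of which 14 were tested. Nutlin changed 0 of them past the limma test in each state, with 1, 1 and 0 at an unadjusted p under 0.05 in asynchronous, blocked and S-phase cells and 0 by voom in each. Between states some did change. In blocked against asynchronous DMSO cells 6 of the 14 fell and 2 rose, where 17% of all genes were lower and 16.9% higher. MAP2K6, an activator of p38, rose by 1.2 ± 0.14 (limma adjusted p = 5.64e-05) at a low level, a mean of 17 normalised reads over the libraries. MAP2K3, another p38 activator, had values of 8.73 and 8.65 in blocked and 9.75, 9.79 and 9.98 in asynchronous DMSO cells. It fell by 1.15 ± 0.31 (limma adjusted p = 0.0123), a call lost when either DMSO non-released library was left out (limma adjusted p up to 0.084). After release under DMSO, MAP2K6 fell by 0.76 ± 0.14 (limma adjusted p = 0.00621), a call lost in the same way (limma adjusted p up to 0.0744). MAP2K3 rose by 1.11 ± 0.31 (limma adjusted p = 0.049) and by 0.66 ± 0.16 with 13 libraries (limma adjusted p = 0.0124), and its call was lost in 12 of 23 alternatives, 9 of them without 1 library of the asynchronous or block groups. MAPKAPK2, a kinase that p38 activates, fell in blocked against asynchronous cells under Nutlin by 0.64 ± 0.13 (limma adjusted p = 0.00183) and under DMSO by 0.58 ± 0.13 (limma adjusted p = 0.0034), in each of 23 alternatives.

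EGFR, the receptor for TGFA, HBEGF and EREG, had values of 9.50 and 9.86 in Nutlin S-phase cells and 8.89, 8.65 and 8.55 in Nutlin asynchronous cells. The rise of 0.985 ± 0.29 (limma adjusted p = 0.0256) was lost in 4 of 23 alternatives, without Nutlin asynchronous replicate 2 or 3 or either Nutlin S-phase library (limma adjusted p up to 0.175). Under DMSO the rise in S-phase against asynchronous cells was 1.35 ± 0.26 (limma adjusted p = 0.00252), and 0.94 ± 0.18 with 13 libraries (limma adjusted p = 0.00181).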
